A study of Bos grunniens with 6 samples.

Results

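The miR-30 family was followed in small-RNA libraries of hair follicle cells that had been isolated from yak (Bos grunniens) skin and cultured. Its members are the entries of the deposited table whose names, without the species prefix and the arm, run from miR-30a to miR-30f, and 7 of the 2853 entries met this rule. The table compares wild-type dermal papilla cells, a mesenchymal cell type that signals to the hair follicle from its base, with wild-type hair matrix cells, the dividing epithelial cells around the papilla that build the hair shaft. Both cell types were grown in the same serum-containing medium with IGF1 and EGF. Each has 3 libraries that the labels call biological replicates. No animal or culture is named for them, so each p-value reflects only how far these libraries spread, which may be technical.

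A microRNA guides a silencing complex to messenger RNAs that pair with its seed, the stretch from base 2 to base 8. The miR-30 family is a set of hairpins in vertebrates that share 1 seed on the 5p arm, are present in most tissues, and are known to repress SNAI1, CTGF and RUNX2 and so to hold back the change from epithelial to mesenchymal cells and bone formation. In mammals the hairpins lie in pairs, with miR-30d next to miR-30b, and with miR-30e and miR-30a each next to a miR-30c hairpin. Positions in the yak genome were not used here.

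The sequences are shown because the members differ by so few bases that the reads of several could be divided between entries. They are printed as the deposited table gives them, 5′ to 3′, with bases 2 to 8 in capitals.
bta-miR-30a-5p: tGTAAACAtcctcgactggaagct
bta-miR-30d: tGTAAACAtccccgactggaagct
bta-miR-30e-5p: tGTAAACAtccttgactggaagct
bta-miR-30b-5p: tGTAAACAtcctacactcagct
bta-miR-30c: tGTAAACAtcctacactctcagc
bta-miR-30f: tGTAAACAccctacactctcagct
bta-miR-30b-3p: cTGGGAGGtggatgtttactt

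The first 8 bases were the same in 6 members, and these 6 were the only entries of the table, predicted ones included, with this seed. The miR-30b-3p arm, from the other side of the miR-30b hairpin, has a seed of its own. By the bases after the seed, miR-30a-5p, miR-30d and miR-30e-5p resemble each other, and so do miR-30b-5p, miR-30c and miR-30f. Counted from base 1, miR-30d differs from miR-30a-5p by T12C over 24 bases, and miR-30e-5p differs from miR-30a-5p by C13T over 24 bases. In the other set, miR-30f differs from miR-30c by T9C over 23 bases. The first 18 bases of miR-30b-5p and miR-30c are the same, and miR-30c differs from miR-30b-5p by A19T, G20C, C21A and T22G. How the authors' counting placed a read that fits such neighbours is not given in the sources used here, so the values of miR-30a-5p, miR-30c, miR-30d, miR-30e-5p and miR-30f are uncertain to that extent. No entry outside the family came within 1 mismatch of a member over their whole overlap, where that was at least 18 bases. Matches over only a part of the overlap were not searched.

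Values are in RPM, reads of an entry scaled to a fixed library total, and the libraries held 23904796 to 24693655 reads, 71.7% to 73.5% of them on listed entries. A count of 3 reads corresponds to 0.121 to 0.125 RPM, a limit for counting error only. All 7 members reached 1 RPM in every library, so none entered the test through 1 cell type alone. The cell labels were compared with marker miRNAs. The 6 epithelial markers summed to 82.9 to 108 RPM in dermal papilla and 22064 to 22261 RPM in hair matrix libraries, and the 5 mesenchymal ones to 84688 to 87633 and 1159 to 1367 RPM. Of other cell types, 6 blood markers summed to 18.4 to 21.6 and 8.59 to 11.8 RPM, 5 muscle markers to 58.4 to 72.9 and 40.9 to 42.6 RPM, 2 endothelial ones to 3.68 to 4.70 and 2.57 to 4.01 RPM, and the melanocyte marker miR-211 was at 0 in dermal papilla and at most 0.0810 RPM in hair matrix libraries. The muscle markers went different ways. The mean of miR-1 was 66.0 RPM in dermal papilla and 25.4 RPM in hair matrix cells, and that of miR-499 was 0.374 and 16.0 RPM. The other muscle markers averaged under 1 RPM in both cell types. The part of these other cell types in the results was not tested. In bulk samples, fewer cells of a type and less RNA per cell cannot be told apart.

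The summed RPM of miR-30 was 1.16-fold higher in dermal papilla than in hair matrix cells, and the mixture of members differed. The direction of that sum depended on the scaling, with a log2 ratio of 0.22 as deposited and -0.055 after median centring. RPM gives a part of a library's reads, so amounts per cell are not known. Of the 7 members, miR-30d, miR-30c and miR-30b-5p were higher in dermal papilla cells, miR-30e-5p, miR-30f and miR-30b-3p were higher in hair matrix cells, and miR-30a-5p did not pass the test. Every one of these differences was under 2-fold. The test was limma on log2(RPM + 1) over 503 entries, with Benjamini-Hochberg adjustment over all of them and an adjusted p under 0.05. Log2 changes below are dermal papilla minus hair matrix on that scale, which understates the change of low entries, and each fold is the mean RPM of one cell type over that of the other.

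The count of 3 members higher in dermal papilla cells stands beside 42.1% of all tested entries, and the 3 lower ones beside 40.6%, so the members passed about as often as other entries. With a 2-fold minimum added, limma called 0 of the 7, against 45.1% of all tested entries. edgeR and DESeq2 with that minimum also called 0 members, against 56.5% and 56.9% of the same entries. An unadjusted limma p under 0.05 was found for 6 members and for 83.1% of all tested entries. Dermal papilla and hair matrix libraries were without overlap for 6 members, beside 84.1% of all tested entries. The median log2 change was -0.06 for the family and -0.01 for all tested entries, and the median absolute change was 0.43 and 0.89.

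**Figure D1:**
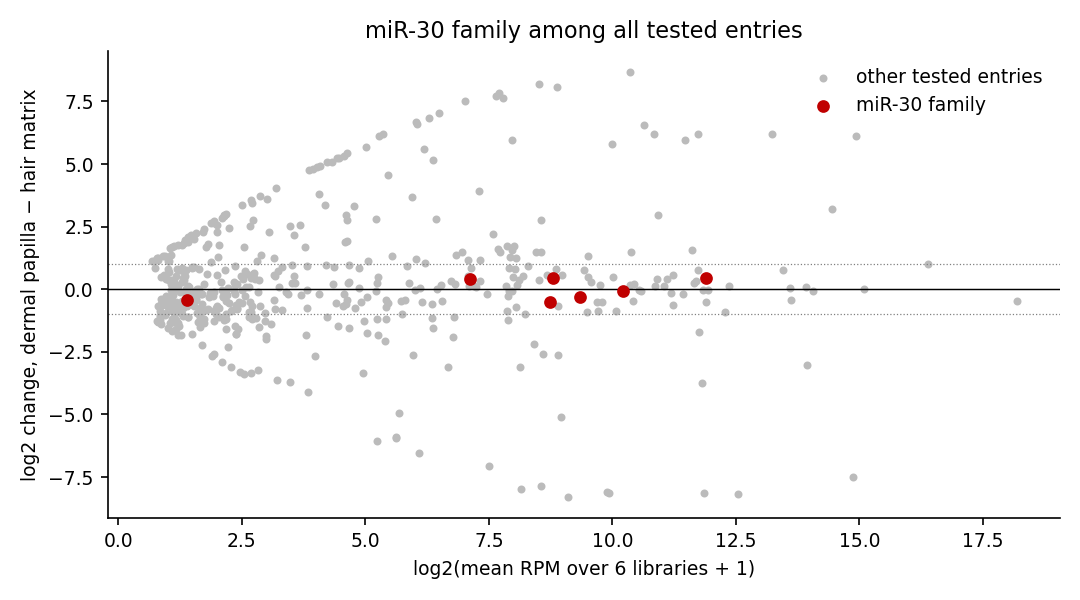
Each point is 1 of the 503 tested entries, with its mean level over the 6 libraries as log2(RPM + 1) on the x axis and its log2 change, dermal papilla minus hair matrix, on the y axis. Dotted lines mark a 2-fold change, and the 7 members of the miR-30 family (red) all lie between them, from -0.51 to 0.45.

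miR-30d carried most of the family in both cell types and was 16th in level among tested entries in dermal papilla cells and 21st in hair matrix cells. With miR-30b it is known from melanoma, where it represses GALNT7. It was at 4369, 4439.8 and 4353 RPM in the dermal papilla libraries and at 3199, 3294 and 3143 RPM in the hair matrix libraries. The groups lay far apart compared with their own spread, which was 46.3 and 76.1 RPM (SD, n = 3 each). The mean was 1.37-fold higher in dermal papilla cells, a log2 change of 0.45 ± 0.034 (SE, limma adjusted p = 9.89e-06).

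miR-30b-5p, whose hairpin neighbours that of miR-30d, was far lower at 152, 148 and 168 RPM in dermal papilla and 112, 126 and 117 RPM in hair matrix libraries. All 3 dermal papilla values were above the hair matrix ones. Its log2 change of 0.40 ± 0.073 (SE, limma adjusted p = 0.00153) was close to that of miR-30d. This call depended on the scaling, since the log2 change was 0.12 after median centring (limma adjusted p = 0.146) and -0.17 after quantile normalization (limma adjusted p = 0.0630). Within a library, miR-30d was 25.96 to 29.9 times as abundant as miR-30b-5p in dermal papilla and 26.1 to 28.7 times in hair matrix cells. These ratios overlapped, with a log2 difference of 0.05 (two-sided exact permutation p = 0.6, also 0.6 after adjustment over 4 ratios).

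The opposite arm, miR-30b-3p, is usually discarded when the duplex is loaded. It was at 1.05, 1.04 and 1.65 RPM in dermal papilla libraries and at 2.31, 1.76 and 2.00 RPM in hair matrix libraries. These values rest on 25 to 57 reads per library, against 2754 to 4065 for miR-30b-5p. The arm was 1.62-fold higher in hair matrix cells, with a log2 change of -0.43 ± 0.13 (SE, limma adjusted p = 0.0176), although the other arm of the same hairpin was lower there. The call was lost without dermal papilla replicate 1 (limma adjusted p = 0.0665), without dermal papilla replicate 2 (0.0645), without hair matrix replicate 1 (0.0669) and in DESeq2 (adjusted p = 0.0977). miR-30b-5p exceeded miR-30b-3p 102-fold to 145-fold in dermal papilla libraries and 48.3-fold to 71.9-fold in hair matrix libraries. The log2 ratio of the arms thus differed by 1.12 without overlap (two-sided exact permutation p = 0.1, the smallest that 3 against 3 can give, and 0.133 after adjustment over 4 ratios).

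miR-30a-5p, known to repress the autophagy gene BECN1, was the second most abundant member. It was at 1133, 1153 and 1186 RPM in dermal papilla libraries and 1212, 1251 and 1154 RPM in hair matrix libraries. The ranges overlapped, and the log2 change of -0.06 ± 0.045 (SE, limma adjusted p = 0.271) did not pass the test. Under scalings that lower dermal papilla values, it passed as lower in dermal papilla cells, at -0.33 after median centring, -0.29 after quantile normalization and -0.26 without the 5 most abundant miRNAs (limma adjusted p = 0.000404, 0.000237 and 0.00150).

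miR-30e-5p, known to repress the SUMO-conjugating enzyme UBC9, was at 582, 587 and 576 RPM in dermal papilla libraries. In hair matrix libraries it was at 708, 739 and 722 RPM, all above the dermal papilla values. Its mean in hair matrix cells was 1.24-fold the dermal papilla mean, and the log2 change was -0.31 ± 0.039 (SE, limma adjusted p = 0.000195). Its level thus differed in the direction opposite to that of miR-30d, from which it differs by C12T and C13T. Within a library miR-30d was 7.51 to 7.56 times as abundant as miR-30e-5p in dermal papilla cells and 4.36 to 4.52 times in hair matrix cells, a ratio chosen after the values were seen and not tested.

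miR-30c, known to repress CTGF in the heart, was at 521, 514 and 492 RPM in dermal papilla libraries and at 391, 376 and 360.4 RPM in hair matrix libraries. The groups did not overlap. It was 1.35-fold higher in dermal papilla cells, a log2 change of 0.44 ± 0.050 (SE, limma adjusted p = 0.000116). It was compared with the members whose hairpins lie next to a miR-30c hairpin in mammals. miR-30e-5p was 1.12 to 1.17 times as abundant as miR-30c in dermal papilla and 1.81 to 2.00 times in hair matrix libraries, and miR-30a-5p was 2.17 to 2.41 and 3.097 to 3.33 times as abundant. The log2 differences of these ratios were -0.75 and -0.50 (two-sided exact permutation p = 0.1 each, the smallest possible, and 0.133 after adjustment over 4 ratios).

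miR-30f is a member with a cattle name of its own. It was at 366, 359 and 333 RPM in dermal papilla libraries and 483, 532 and 499 RPM in hair matrix libraries, again without overlap. The mean in hair matrix cells was 1.43-fold the dermal papilla mean, and the log2 change was -0.51 ± 0.059 (SE, limma adjusted p = 0.000116). miR-30c and miR-30f, which differ by T9C, therefore exchanged places. miR-30c exceeded miR-30f by 1.42-fold to 1.48-fold in dermal papilla libraries, and was 0.707 to 0.810 times as abundant in hair matrix libraries. This ratio was picked out after its values were seen and has no test.

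Added together, miR-30c and miR-30f made up 887, 873 and 825 RPM in dermal papilla and 874, 908 and 859 RPM in hair matrix libraries. These sums overlapped, and a fit with near-identical members summed, added after the data were seen, gave a log2 change of -0.03 ± 0.047 (SE, limma adjusted p = 0.564). In the same fit the sum of miR-30a-5p, miR-30d and miR-30e-5p had a log2 change of 0.25 ± 0.033 (SE, limma adjusted p = 0.000241). Its mean was 6126 ± 48.9 RPM in dermal papilla and 5140.0 ± 134 RPM in hair matrix libraries (SD, n = 3 each). miR-30b-5p, which has the same first 18 bases as miR-30c, was in neither sum. Whether reads of 1 member were counted under its neighbour was not tested.

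**Figure D2:**
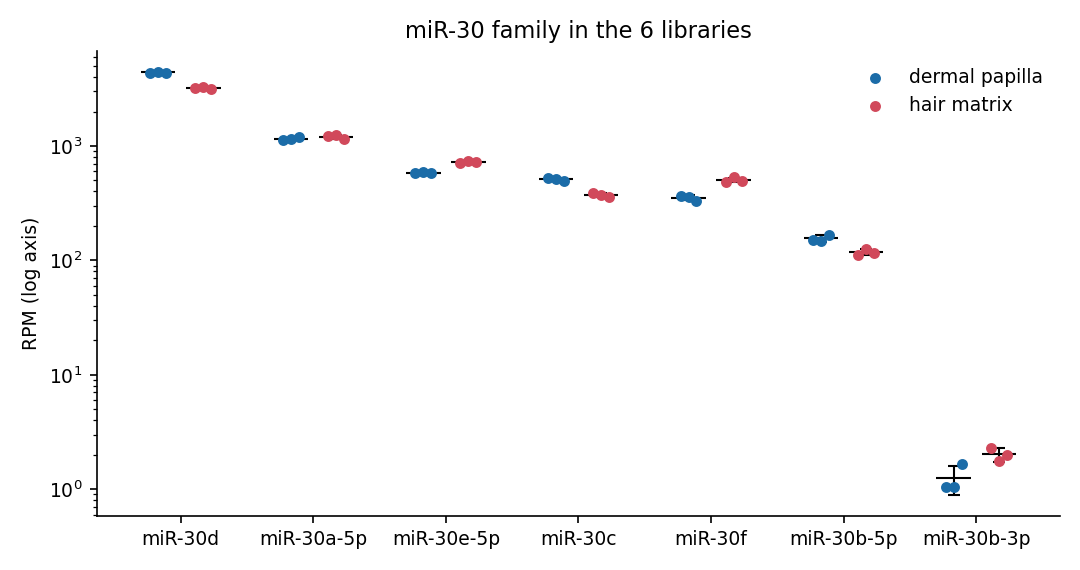
Level of each miR-30 member in RPM (log axis) in the 3 dermal papilla libraries (blue) and the 3 hair matrix libraries (red), with the mean and SD in black. miR-30d is the highest in every library, miR-30c lies above miR-30f in dermal papilla libraries and below it in hair matrix libraries, and miR-30b-3p is near 1 to 2 RPM.

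**Figure D3:**
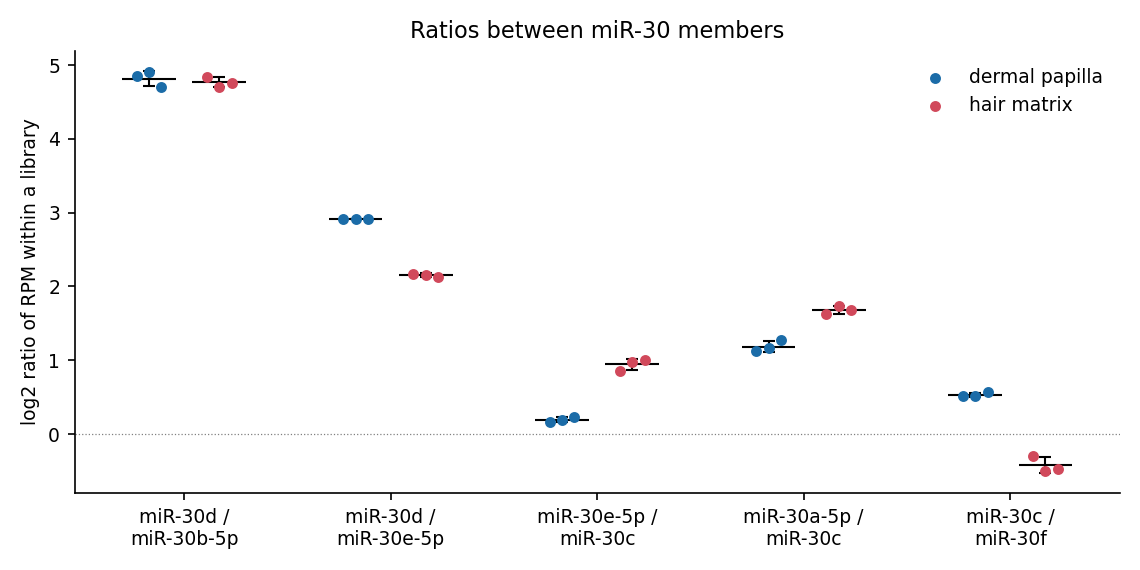
Log2 ratio of the RPM of 2 members within each library, for dermal papilla (blue) and hair matrix (red), with the mean and SD in black. The ratio of miR-30d to miR-30b-5p overlaps between cell types, and that of miR-30c to miR-30f is above 0 in dermal papilla and below 0 in hair matrix libraries.

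As a whole the family made up 7125, 7202 and 7109.6 RPM in the dermal papilla libraries and 6106, 6319 and 5996 RPM in the hair matrix libraries. The sums did not overlap, and their means of 7145 ± 49.7 and 6140.3 ± 164 RPM (SD, n = 3 each) differed 1.16-fold. Among listed reads the family held 0.984% ± 0.00756 in dermal papilla and 0.846% ± 0.0242 in hair matrix cells (SD, n = 3 each). The sum followed miR-30d. Without this member the rest summed to 2756, 2762 and 2757 RPM in dermal papilla libraries and to 2907, 3025 and 2853 RPM in hair matrix libraries, which are higher in hair matrix cells. The direction of the family sum depended on the scaling, since its log2 ratio of 0.22 became 0.23 after TMM scaling, 0.018 without the 5 most abundant miRNAs and -0.055 after median centring.

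The shares within the family are unchanged by any scaling with 1 factor per library, though not by quantile normalization, which alters ratios between members. miR-30d held 61.3%, 61.6% and 61.2% of the family's reads in dermal papilla libraries and 52.4%, 52.1% and 52.4% in hair matrix libraries. This drop of 9.09 percentage points was many times the spread between replicates, 0.220 and 0.162 points (SD, n = 3 each). The shares of miR-30e-5p, miR-30a-5p and miR-30f were higher in hair matrix cells. miR-30e-5p went from 8.14% ± 0.0356 in dermal papilla to 11.8% ± 0.231 in hair matrix cells (SD, n = 3 each). miR-30a-5p went from 16.2% ± 0.423 to 19.6% ± 0.336, and miR-30f from 4.94% ± 0.231 to 8.21% ± 0.270. miR-30c fell from 7.13% ± 0.196 to 6.12% ± 0.248 and miR-30b-5p from 2.18% ± 0.156 to 1.92% ± 0.0875. For each of the 7 members the shares in dermal papilla and hair matrix libraries did not overlap, although the share of one member moves those of the others. In RPM, 84.1% of all tested entries were without overlap, and no such background was computed for shares.

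**Figure D4:**
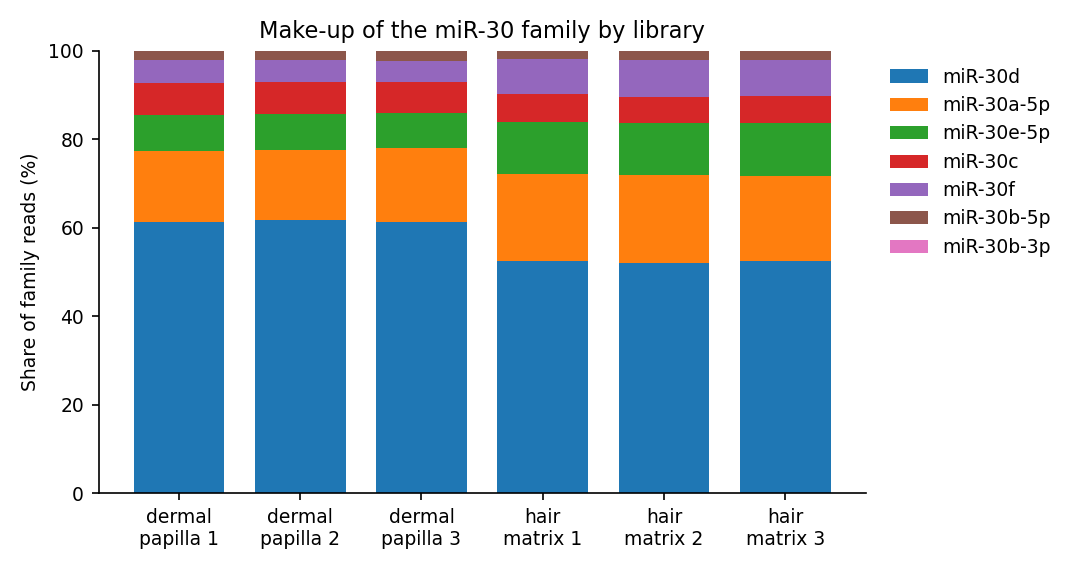
Share of the family's reads in percent (y axis) held by each member in each of the 6 libraries (x axis), stacked to 100. The miR-30d block reaches 61.2% to 61.6% in dermal papilla and 52.1% to 52.4% in hair matrix libraries, and miR-30b-3p is too thin to see.

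The small size of the changes makes their direction sensitive to how libraries are put on 1 scale. Median centring lowered all log2 changes by 0.27, quantile normalization moved the median of all tested entries by -0.22 and leaving out the 5 most abundant miRNAs moved it by -0.20 over those of the 503 entries that remained, whereas TMM scaling moved it by 0.01. The split of all entries past the test, 212 higher and 204 lower in dermal papilla cells, became 177 and 249 after median centring, 174 and 240 after quantile normalization and 223 and 341 of 764 tested without the 5 most abundant miRNAs. Within the family, miR-30c and miR-30d passed as higher and miR-30e-5p and miR-30f as lower in dermal papilla cells under all 5 scalings. The log2 change ranged from 0.18 to 0.46 for miR-30d and from 0.16 to 0.45 for miR-30c. It ranged from -0.59 to -0.30 for miR-30e-5p and from -0.79 to -0.50 for miR-30f. Set against the median of all tested entries, miR-30d was at 0.46 with the deposited values and at 0.46 to 0.67 under the other scalings, and miR-30f at -0.50 and at -0.51 to -0.50. Against the same median, quantile normalization brought miR-30e-5p from -0.30 to -0.095, miR-30b-5p from 0.41 to 0.060 and miR-30b-3p from -0.42 to -0.24.

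**Figure D5:**
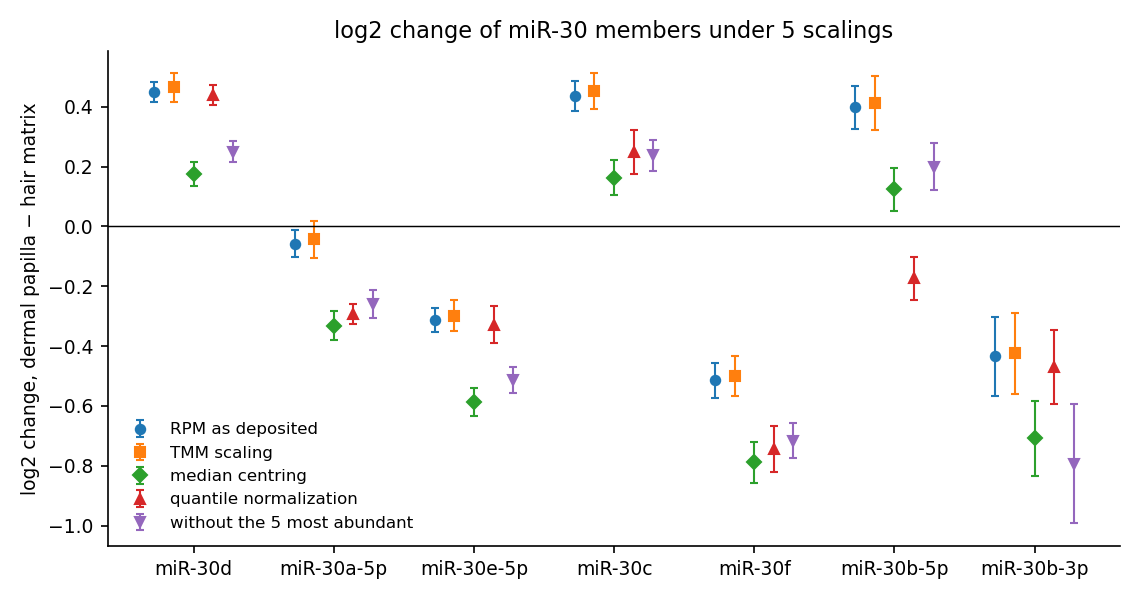
Log2 change of each member, dermal papilla minus hair matrix (y axis), under 5 scalings of the libraries (symbols), with bars of 1 SE. miR-30d and miR-30c stay above 0 and miR-30e-5p, miR-30f and miR-30b-3p stay below it under these scalings, and miR-30b-5p falls to -0.17 with quantile normalization.

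Other conserved families that are abundant in both cell types were summed for comparison. The let-7 family was at 170564 ± 3009.8 RPM in dermal papilla and 110202 ± 1498 RPM in hair matrix cells, 1.55-fold apart, and the miR-26 family at 19903 ± 881 and 12388 ± 136 RPM, 1.61-fold apart. The miR-29 family was at 2603 ± 98.0 and 3045 ± 123 RPM (SD, n = 3 each), with a log2 ratio of -0.23. Of 10 tested let-7 members 3 were higher and 1 lower in dermal papilla cells. Of 3 miR-26 members 2 were higher, and of 5 miR-29 members 4 were lower. These counts stand beside 42.1% of all tested entries that were higher and 40.6% that were lower. Between these families and miR-30 no difference was tested. When entries were grouped by seed, 23 groups held at least 1000 RPM in both cell types, and the miR-30 seed was 11th by sum in dermal papilla cells and 13th in hair matrix cells. Only 5 of the 23 had a smaller absolute log2 ratio with the deposited scaling.

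miRNAs known, like miR-30, to hold back the change from epithelial to mesenchymal cells moved one way here. The list had 10 entries in the deposited table, and 9 of them were tested. All 9 tested entries were lower in dermal papilla cells, beside 40.6% of all tested entries. Of these, 8 were lower at least 2-fold, beside 45.1% of all tested entries that changed so in either direction. The median log2 change was -6.53. Their values ranged from miR-200b, at 2.58 ± 0.677 and 1099 ± 62.7 RPM (SD, n = 3 each), to miR-101, at 164 ± 6.90 and 186 ± 8.25 RPM with a log2 change of -0.18 (limma adjusted p = 0.0233). Of the 9 entries, 6 are the epithelial markers (the miR-200 family and miR-205) with which the cell labels were compared, so their direction was known before the count. The median is the value of 1 of these markers, miR-141. The remaining entries were miR-34a, miR-34c and miR-101, with log2 changes of -1.90, -1.17 and -0.18.

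The miRNAs whose profile over the 6 libraries was most like the family sum were found among 85 others with cattle names and at least 100 RPM in every library. Likeness was the root mean square difference of centred log2 values. It was smallest for miR-2285aj-5p, a ruminant miRNA, at 0.0463, followed by let-7b at 0.0524 and miR-125a at 0.0615. miR-2285aj-5p was at 825 ± 18.2 RPM in dermal papilla and 682 ± 9.04 RPM in hair matrix cells (SD, n = 3 each).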

How the data were processed

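Small RNA of 3 dermal papilla and 3 hair matrix libraries was compared. The deposited values, called TPM by the authors, are RPM: in each library 100% of them are whole multiples of 1 step within 0.001 read, which gives the library totals and whole reads per entry. Entry lengths and sequences were used as deposited. Tools listed without a role in the submitters' processing notes are HISAT2 2.2.1.0, DESeq 1.20.0 and Trimmomatic. Not given in the sources used here are the genome build, the source of the miRNA sequences and how a read with several matches was counted.

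The 503 of 2853 entries that reached 1 RPM in 3 or more libraries were fitted with limma 3.58.1 (R 4.3.3) on log2(RPM + 1), with cell type as the only term, a variance trend and Benjamini-Hochberg adjustment; the step was tested on simulated data. Ratios within a library were compared with exact permutation tests. Alternatives were pseudocounts of 0.5 and 10, no filter or 10 RPM, TMM, median centring, quantile normalization, RPM without the 5 most abundant miRNAs, the replicate number as a block, no trend, library weights, edgeR 4.0.16 and DESeq2 1.42.0 on whole reads, cattle names only, a 2-fold minimum, and leaving out each library. Each fit without 1 library was also run with the tested miRNAs held fixed, which was not planned. The family, lists and tests were chosen with earlier results of these data known. Every member was named, with the 3 miRNAs of likest profile and families listed for comparison; ratios and sums marked as such were chosen after their values were seen.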

Additional observations from a re-analysis of the deposited data

How the results depend on the processing

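The counts of 3 members higher and 3 lower in dermal papilla cells became 0 and 0 with a 2-fold minimum, under which 227 of all tested entries remained past the test in place of 416. With a filter of 10 RPM, under which fewer entries were tested, 211 passed. miR-30b-3p was not tested there, and 3 members were higher and 2 lower in dermal papilla cells. With near-identical members summed, 2 were higher, miR-30b-5p and the sum of miR-30a-5p, miR-30d and miR-30e-5p. In that fit 1 was lower, miR-30b-3p, and the sum of miR-30c and miR-30f did not pass. The family sum had a log2 ratio of -0.055 after median centring and 0.018 without the 5 most abundant miRNAs. The log2 change of miR-30a-5p was 0.0054 in DESeq2 (adjusted p = 0.944) and that of miR-30b-5p -0.17 after quantile normalization. The log2 difference between the arms of miR-30b was 0.83 with a pseudocount of 1 on both values. With the replicate number as a block, 3 members were higher and 3 lower and 412 entries passed in all. Deviations of same-numbered libraries from their group means correlated at 0.14, 0.080 and -0.27, and those of differently numbered ones at -0.43 to 0.39. Deviations from a mean of 3 libraries are tied to each other, so these values cannot show whether the numbers pair the libraries. In each of 26 alternatives without a fold minimum miR-30c, miR-30d, miR-30e-5p and miR-30f kept their direction and passed the test. Each left-out library enters these both with the filter applied again and with the tested miRNAs held fixed, at the same log2 change. Without 1 library the family sum had log2 ratios of 0.20 to 0.24. miR-30b-3p, with 25 to 57 reads per library, is the member that depth limits. The causes of these shifts were not tested.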
